A study of Mus musculus with 8 samples.

Results

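The genes described here encode the contractile and filament proteins of smooth muscle: Acta2, Actg2, Tagln, Myh11, Cnn1, Lmod1, Des, Synm, Myl9 and Smtn. They were chosen by name, as every probe whose platform gene symbol was one of these 10. Of the 10 genes, 9 were listed in the platform annotation, with 16 of the 25697 probes on the array, and Myl9 was not listed there. The whole annotation named 16593 genes. RNA came from whole lungs of NOD/shi mice, an inbred substrain of non-obese diabetic mice, aged 6 to 12 weeks. The 3 control mice had not been ventilated and the 5 other mice had been mechanically ventilated, in a study of ventilator-induced lung injury. Each lung was hybridised to 1 single-colour Illumina bead array. No genetic modification is labelled. Ventilator settings, duration and anaesthesia are not stated in the labels. Lungs carry numbers within their group, and p-values measure the spread between these numbered samples.

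Smooth muscle in the lung surrounds airways and blood vessels, where its shortening sets their calibre. The force comes from smooth muscle myosin pulling on actin filaments after phosphorylation of the myosin light chain, while calponin, transgelin, smoothelin and leiomodin bind the actin filaments. Intermediate filaments of desmin and synemin tie the contractile apparatus together and to the cell membrane. Transcription of many of these genes depends on serum response factor (SRF) and its cofactor myocardin, which act through DNA sites called CArG boxes.

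The CArG boxes were looked up in the promoter windows of the RefSeq table (GRCm38.p6, 250 bases before to 50 bases after each gene start), because they are the best known element that these genes share. A window was held by 7 of the 10 genes, and Actg2, Tagln and Myh11 had none. An exact CArG box on either strand was found in 1 of the 7 genes, Myl9, and in 1.63% of all 32851 windows. A CArG-like site, in which at least 5 of the central 6 bases are A or T, was found in 3 of the 7, Acta2, Myl9 and Synm, and in 9.98% of all windows. This looser pattern contains the exact one and was added after the exact search. The stretches around the sites of the measured genes Acta2 and Synm, which carry the results below, are shown with the CArG-like sites in capitals. A match is a description of the letters and not evidence of a working site.
Acta2, chr19:34255378-34255477, minus strand: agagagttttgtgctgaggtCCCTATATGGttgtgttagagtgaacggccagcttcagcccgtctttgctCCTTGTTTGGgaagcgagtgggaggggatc
Synm, chr7:67759952-67759992, minus strand: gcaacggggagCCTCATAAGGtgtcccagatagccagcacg

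The sites of Acta2 began 84 and 34 bases before the gene start, and the site of Synm began 239 bases before it. No CArG-like site was found in the windows of Cnn1, Smtn, Lmod1 and Des.

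Arrays differed in brightness within both groups, with mean probe intensities of 54.3 to 332 in controls and 87.4 to 321 in ventilated lungs. Control 2 was the dimmest array and detected 8080 probes, against 9765 to 14313 on the others. Values given as levels are log2 intensities after background correction and quantile normalization, and a probe counted as detected on an array where its detection p-value was under 0.05. Of the 16 probes, 14 were detected on at least 3 of the 8 arrays and were tested, and the other 2 were dim probes of Smtn and Synm. A test across all 13374 such probes of the array used limma, p-values adjusted by Benjamini-Hochberg and a threshold of 0.05.

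Of the 14 tested probes of these genes, 1 passed the threshold, a probe of Synm that was lower in ventilated lungs. None was higher, at the adjusted threshold or at an unadjusted p under 0.05, and 3 were lower at an unadjusted p under 0.05. Over the whole array 0.628% of probes were called lower and 0.987% higher. At an unadjusted p under 0.05, 7.01% of probes were lower and 8.01% higher. The log2 fold change was below 0 for 9 of the 14 probes, against 49.5% of all tested probes. Their median was −0.36, against 0.01 over all tested probes. Counting each gene once by its brightest probe gave a median of −0.23, with 5 of 9 below 0. Of these 9, 1 was lower at an unadjusted p under 0.05. Leaving out control 1 gave a median of −0.21 over the 12 probes then tested. Acta2 alone supplied 4 of the 14 probes. The median was also −0.23 in the authors' scaled values and −0.24 with array weights. The 14 changes ranged from −1.88 to 0.55, and the 4 Acta2 probes alone from −1.03 to 0.55. Whether the genes moved together was not tested. In whole-lung RNA, fewer cells of a type and less RNA per cell cannot be told apart.

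**Figure D1:**
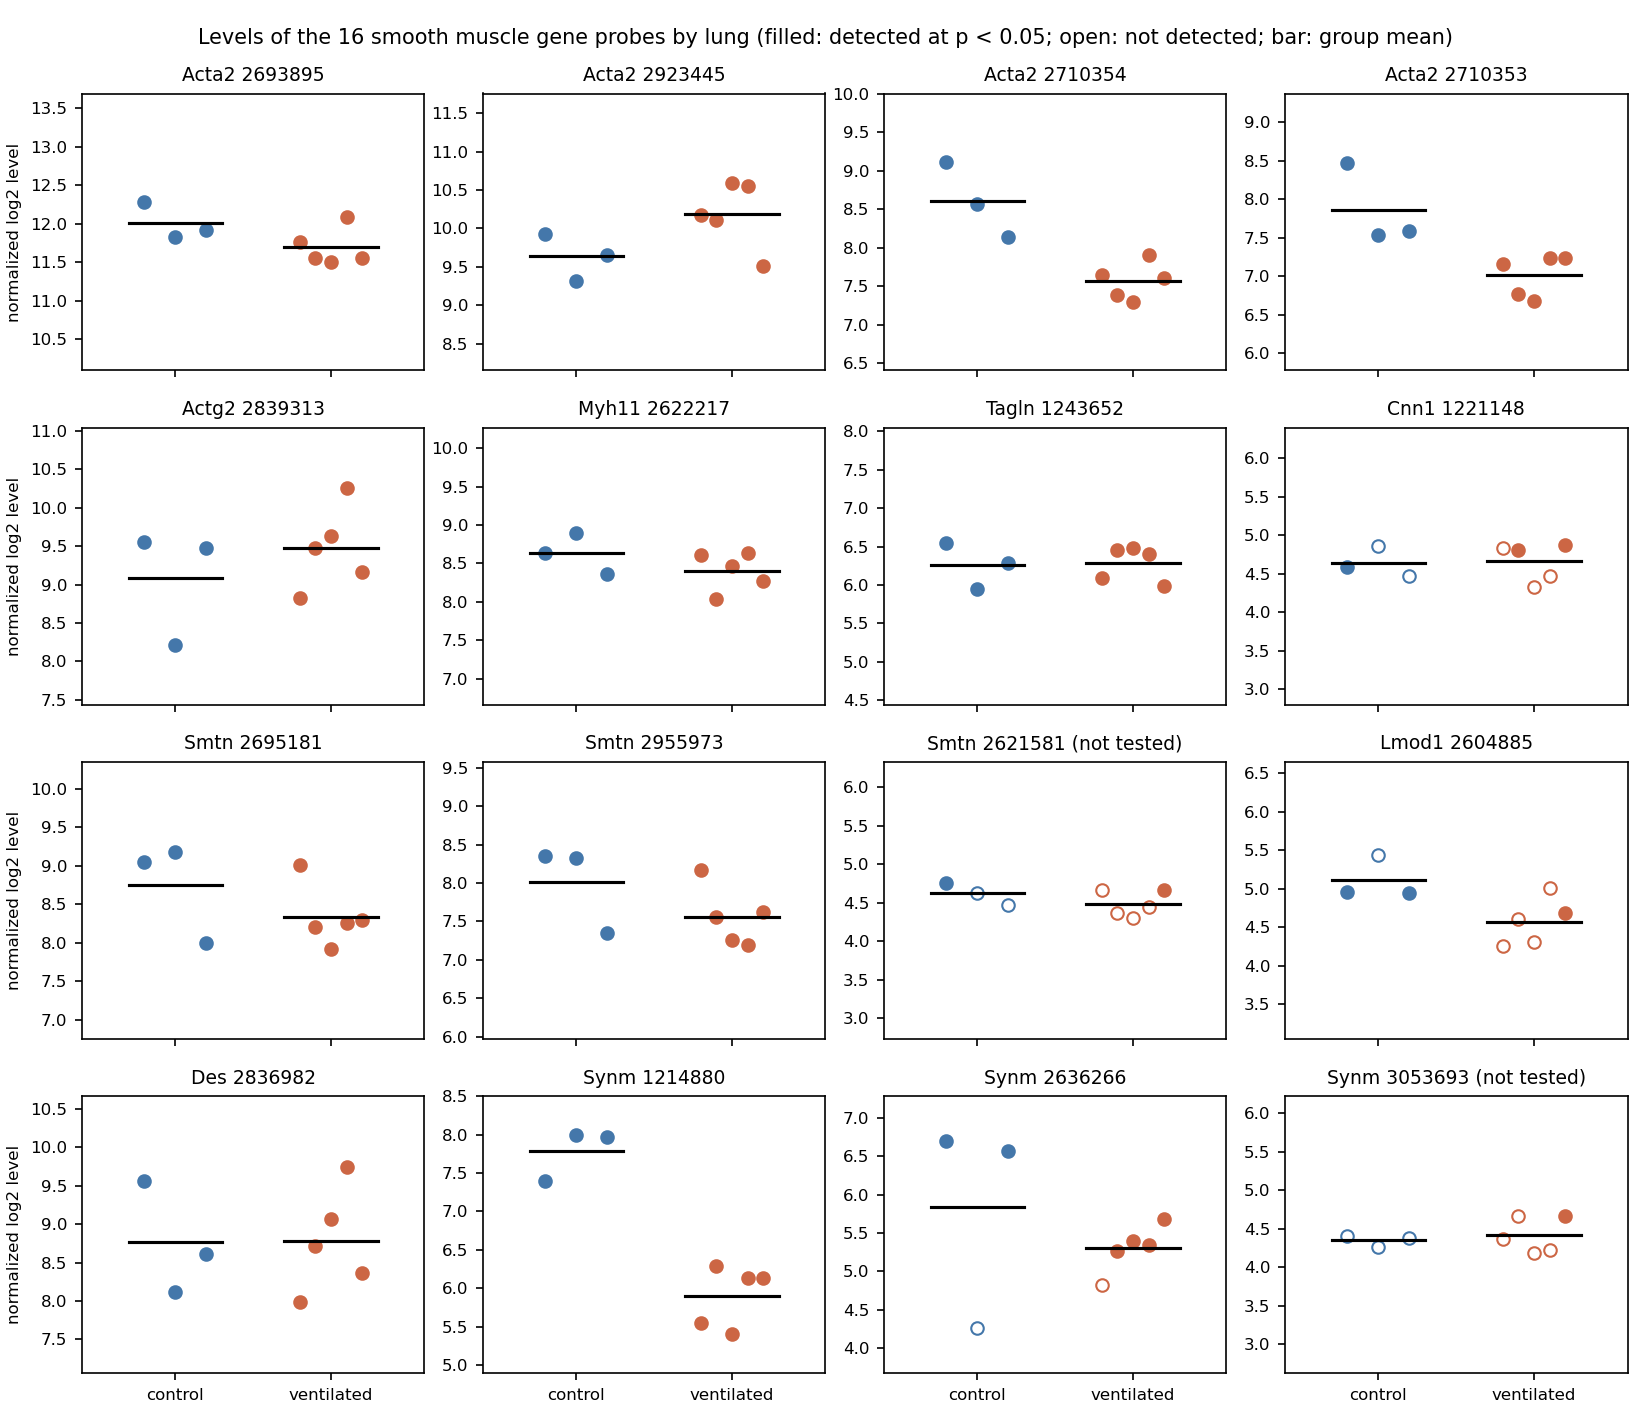
Normalized log2 level (vertical axis) of each of the 16 probes in the 3 control and 5 ventilated lungs, 1 point per lung, with a bar at each group mean; filled points were detected at p under 0.05. The groups do not overlap for Synm ILMN_1214880, Acta2 ILMN_2710354 and Acta2 ILMN_2710353.

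Synm, which encodes the intermediate filament protein synemin, a partner of desmin and vimentin, was lower in every ventilated lung by its brightest probe alone. That probe, ILMN_1214880, stood at 7.39, 7.99 and 7.97 in controls 1 to 3 and at 5.55, 6.29, 5.41, 6.14 and 6.13 in ventilated lungs 1 to 5. All 5 ventilated values lay below the lowest control, without overlap. Non-overlap in this direction held for 3 of the 14 probes, against 6.08% of all tested probes. The others were ILMN_2710354 and ILMN_2710353, both of Acta2, and by brightest probe only Synm lay without overlap. None of the 14 lay above all controls in every ventilated lung, against 6.12% of all tested probes. By ILMN_1214880 Synm fell by 1.88 on the log2 scale (SE 0.28, 95% interval −2.50 to −1.27, limma adjusted p = 0.00923), a 3.69-fold lower level. The group means were 7.79 ± 0.34 (SD, n = 3) and 5.90 ± 0.40 (SD, n = 5). The probe was detected on all 8 arrays. Leaving out control 3 gave −1.76 and ended the call (adjusted p = 0.0538), while without each of the other lungs it passed.

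The groups overlapped before normalization between arrays of different brightness. As deposited, the Synm probe read 394, 61.7 and 407 intensity units in controls and 57.2, 116, 57.4, 56.0 and 151 in ventilated lungs. The raw value of control 2, the dimmest array, lay within the ventilated range, and those of controls 1 and 3 lay above it. On the 4 brighter arrays alone, controls 1 and 3 and ventilated 2 and 5, the log2 fold change was −1.47 and did not pass (adjusted p = 0.0987). With array brightness as a block it was −1.83 and passed (adjusted p = 0.0171). In the authors' scaled values it was −1.30 (adjusted p = 0.148), and with arrays brought to a common median it was −1.77 (adjusted p = 1).

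The second Synm probe, ILMN_2636266, depended on which control was left out. Its levels were 6.70, 4.26 and 6.57 in controls and 4.82, 5.26, 5.39, 5.34 and 5.68 in ventilated lungs. It was high in controls 1 and 3 and lowest in control 2. Its detection p-value in control 2, as deposited by the authors, was 0.724. With all arrays the log2 fold change was −0.55 ± 0.49 (SE, limma adjusted p = 0.659). Without control 2 it was −1.39 and passed (adjusted p = 0.038). Without control 1 it was −0.16 (adjusted p = 0.894) and without control 3 it was −0.19 (adjusted p = 0.895). The change of ILMN_1214880 minus that of this probe was −1.34 and did not pass (exact two-sided permutation p = 0.0714, adjusted 0.0952 over the 8 probe pairs tested within genes). The third probe, ILMN_3053693, annotated to another Synm transcript, was detected on ventilated 5 alone and was not tested. Its levels spanned 4.18 to 4.67 over the 8 lungs, with group means of 4.35 ± 0.08 (SD, n = 3) and 4.42 ± 0.23 (SD, n = 5).

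Des, which encodes desmin, the main intermediate filament of muscle cells, varied widely between lungs of both groups. Its probe stood at 9.56, 8.12 and 8.61 in controls and at 7.99, 8.72, 9.07, 9.74 and 8.37 in ventilated lungs. The highest values were those of ventilated 4 and control 1, and the groups overlapped throughout. Its log2 fold change was 0.01 ± 0.42 (SE, 95% interval −0.92 to 0.95, limma adjusted p = 0.99). It was 0.42 without control 1 and −0.31 without control 2, so its direction was not settled.

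Heart and skeletal muscle also make desmin, and their genes varied between these lungs. The mean level of 9 measured genes of an 11-gene cardiac list, relative to the controls, was 1.36 in control 1 and 1.31 in ventilated 4, against −1.01 to 0.22 in the other lungs. The 2 lungs highest for Des were also the 2 highest for cardiac genes, but the lowest lungs differed. Des was lowest in ventilated 1, at 7.99, where the cardiac mean was −0.24. The cardiac mean was lowest in ventilated 2, at −1.01, where Des stood at 8.72. The summed linear level of that list ran from 4724 to 16953 in controls and from 4542 to 18177 in ventilated lungs, and 7 of the 9 genes were detected on all arrays. Of a 14-gene skeletal list 8 genes were measured, with a mean of 2.63 in control 1 and −1.76 to −0.28 in the others. Its summed level ran from 335 to 10599 in controls and from 747 to 2125 in ventilated lungs. Only 1 of its 8 genes was detected on all arrays, so its mean includes values near background. Acta1, the skeletal muscle actin, stood at 11.60 in control 1 and at 4.31 to 5.69 elsewhere, and was not detected on 2 of the 8 arrays. The part of striated muscle RNA in the levels of Des, Synm and Actg2 was not tested. For the Synm probe ILMN_1214880 the log2 fold change was −2.06 without control 1 and −1.97 without ventilated 4.

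**Figure D2:**
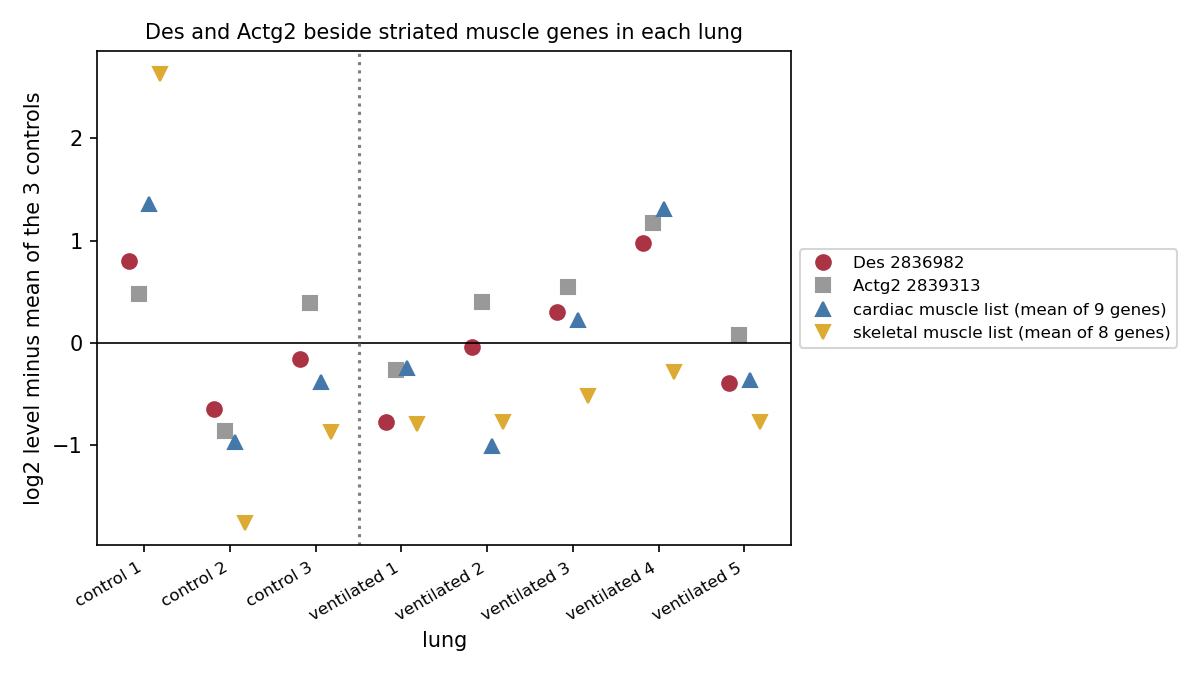
Log2 level minus the mean of the 3 controls (vertical axis) in each of the 8 lungs, for Des, Actg2 and the means of the cardiac (9 genes) and skeletal (8 genes) lists. Control 1 and ventilated 4 hold the highest Des and cardiac values, and control 1 alone has a skeletal value above 0, at 2.63.

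The changes of Synm and Des, whose proteins share filaments, are set side by side here without a test, since Synm stood out beforehand. Taken within each lung, the level of Synm minus that of Des changed by −1.90 between the groups, and all 5 ventilated lungs lay below all controls. The same comparison was made between Synm and each of the 8 other measured genes by their brightest probes, after the change of Synm was known. The difference in change was −1.34 against Lmod1 at the smallest and −2.27 against Actg2 at the largest. The 8 comparisons share the Synm values, which were already known to lie without overlap, and are a description. Vim, which encodes vimentin, the intermediate filament of mesenchymal cells, was picked after its values were seen. It stood at 9.79, 10.52 and 10.05 in controls and at 9.63, 9.62, 8.94, 9.15 and 8.67 in ventilated lungs. The groups did not overlap, but the log2 fold change of −0.92 ± 0.29 did not pass (SE, limma adjusted p = 0.163).

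**Figure D3:**
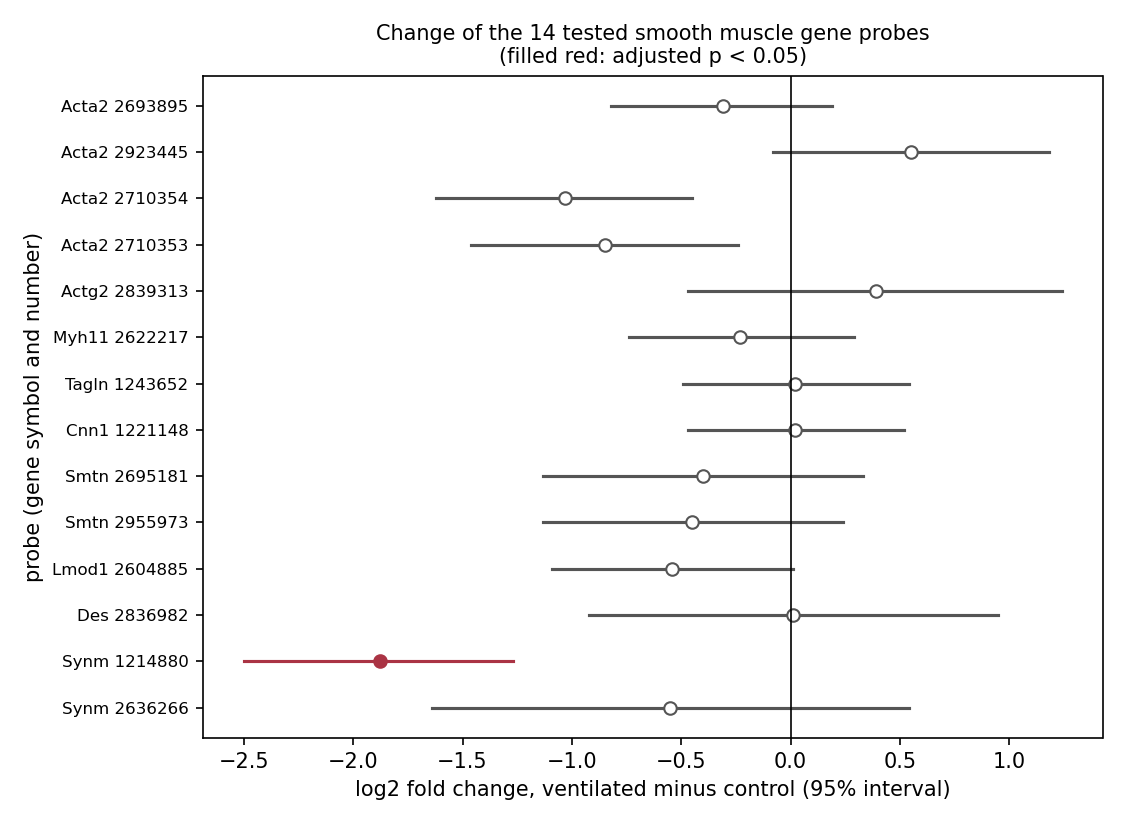
Log2 fold change, ventilated minus control (horizontal axis), of the 14 tested probes with 95% intervals from limma. The Synm probe ILMN_1214880 is the only 1 past an adjusted p of 0.05, at −1.88, and the 4 Acta2 probes lie between −1.03 and 0.55.

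Acta2, which encodes the smooth muscle alpha actin found in vascular and airway muscle and in myofibroblasts, had 4 probes that gave unlike changes. All 4 are annotated to the same transcript, and all were detected on every array. The brightest, ILMN_2693895, stood at 12.28, 11.83 and 11.92 in controls and at 11.76, 11.55, 11.51, 12.09 and 11.56 in ventilated lungs. Of the 5 ventilated lungs 4 lay below the lowest control, and ventilated 4 lay above 2 of the controls. Its log2 fold change was −0.31 ± 0.23 (SE, 95% interval −0.82 to 0.19, limma adjusted p = 0.579). It was −0.05 with arrays brought to a common median, −0.06 in the authors' scaled values, −0.19 without control 1 and −0.55 on the 4 brighter arrays.

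A pair of dimmer Acta2 probes was lower in every ventilated lung. ILMN_2710354 stood at 9.11, 8.57 and 8.14 in controls and at 7.65, 7.38, 7.30, 7.91 and 7.61 in ventilated lungs. Its log2 fold change was −1.03 ± 0.26 (SE, 95% interval −1.62 to −0.45, limma adjusted p = 0.0893). ILMN_2710353 stood at 8.47, 7.53 and 7.59 in controls and at 7.16, 6.77, 6.68, 7.23 and 7.23 in ventilated lungs. Its log2 fold change was −0.85 ± 0.28 (SE, limma adjusted p = 0.177). For both probes the groups did not overlap, and neither passed the threshold. Control 1 was the highest lung in both, and without it the changes were −0.79 and −0.55.

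The fourth Acta2 probe ran the other way. ILMN_2923445 stood at 9.93, 9.32 and 9.66 in controls and at 10.17, 10.11, 10.59, 10.55 and 9.51 in ventilated lungs. Of the ventilated lungs 4 lay above all controls, and ventilated 5 lay between the lowest and the middle control. Its log2 fold change was 0.55 ± 0.29 (SE, 95% interval −0.08 to 1.18, limma adjusted p = 0.412), and 0.01 on the 4 brighter arrays alone.

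In 4 of the 6 Acta2 probe pairs the changes differed by more than the spread between lungs. Differences in change were tested for all 8 pairs of tested probes within 1 gene by an exact two-sided permutation test, chosen after the values were seen. The 6 Acta2 pairs share the same 4 probes, so they are not separate results. The change by ILMN_2923445 exceeded that by ILMN_2710354 by 1.59, that by ILMN_2710353 by 1.40 and that by the brightest probe by 0.87 (exact p = 0.0179 each, the smallest that 56 splits can give, and 0.0358 adjusted over the 8 pairs). The brightest probe's change exceeded that of ILMN_2710354 by 0.72 (exact p = 0.0179, adjusted 0.0358) and that of ILMN_2710353 by 0.53 (exact p = 0.0357, adjusted 0.0571). In these 5 pairs all 5 ventilated lungs lay on 1 side of the controls. The difference between ILMN_2710354 and ILMN_2710353 was −0.19 (exact p = 0.214). Where the probes lie in the transcript is not given in the sources used here, and a single direction for Acta2 was not settled by them.

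**Figure D4:**
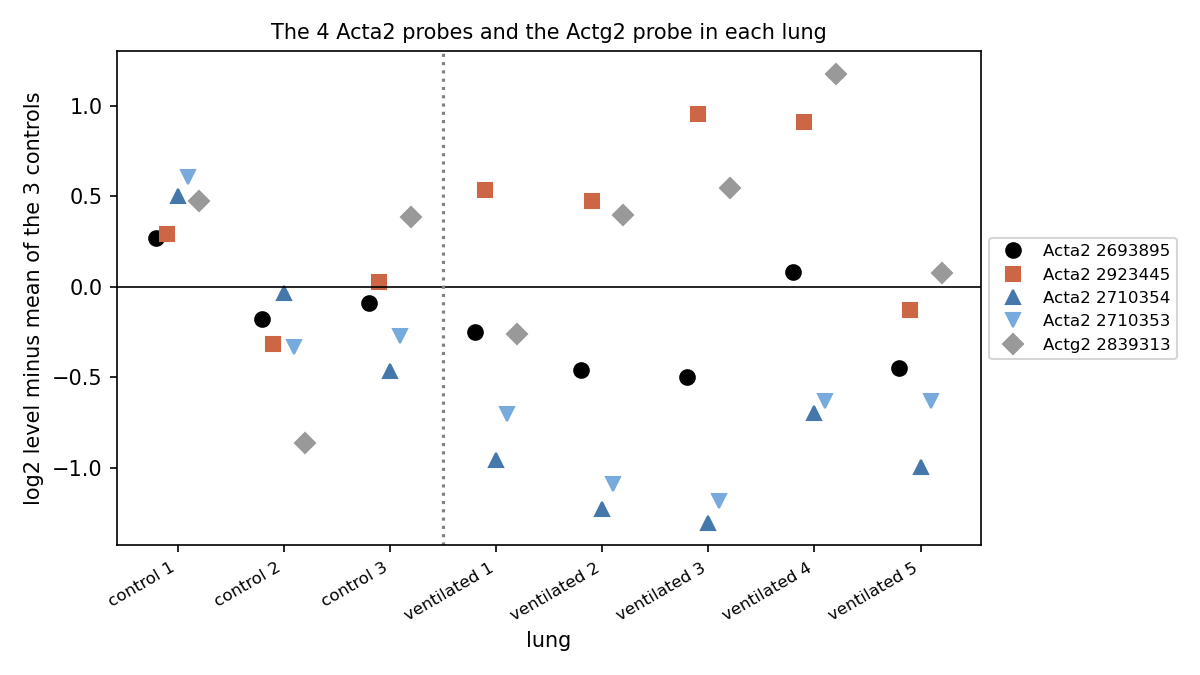
Log2 level minus the mean of the 3 controls (vertical axis) for the 4 Acta2 probes and the Actg2 probe in each of the 8 lungs. In ventilated lungs the probes ILMN_2710354 and ILMN_2710353 lie below 0 in all 5, while ILMN_2923445 lies above 0 in 4 of 5.

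Actg2, which encodes the gamma actin typical of visceral smooth muscle, had 1 probe. It stood at 9.56, 8.22 and 9.47 in controls and at 8.82, 9.48, 9.63, 10.26 and 9.16 in ventilated lungs. Control 2 was lowest and ventilated 4 highest, and the groups overlapped. Actg2 had a log2 fold change of 0.39 ± 0.39 (SE, 95% interval −0.47 to 1.24, limma adjusted p = 0.697). Without control 2 it was −0.04, and on the 4 brighter arrays −0.19.

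Myh11, the heavy chain of smooth muscle myosin and a defining marker of mature smooth muscle, did not differ beyond the spread between lungs. It stood at 8.64, 8.89 and 8.36 in controls and at 8.61, 8.04, 8.47, 8.64 and 8.27 in ventilated lungs. The ranges overlapped, and 2 ventilated lungs lay below the lowest control. Myh11 had a log2 fold change of −0.23 ± 0.23 (SE, 95% interval −0.74 to 0.29, limma adjusted p = 0.705). It was −0.10 without control 2, −0.14 without ventilated 2 and −0.36 without control 3. Myl9, the regulatory light chain whose phosphorylation starts contraction, was not analysed here for want of a listed probe.

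Tagln, which encodes the actin-binding protein transgelin, an early marker of smooth muscle, was nearly equal in the groups. It stood at 6.54, 5.95 and 6.29 in controls and at 6.09, 6.46, 6.48, 6.40 and 5.98 in ventilated lungs. The log2 fold change was 0.02 ± 0.23 (SE, 95% interval −0.49 to 0.54, limma adjusted p = 0.974), and −0.35 with arrays brought to a common median. The interval leaves room for a change of either sign.

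Smtn, which encodes smoothelin, a protein of contractile smooth muscle cells, was measured by a bright pair of probes and by a dim one. ILMN_2695181 stood at 9.05, 9.18 and 8.0 in controls and at 9.01, 8.20, 7.92, 8.26 and 8.30 in ventilated lungs. Control 3 and ventilated 1 each went against their groups. The log2 fold change was −0.40 ± 0.33 (SE, limma adjusted p = 0.625), and that of ILMN_2955973 was −0.45 ± 0.31 (SE, limma adjusted p = 0.557). The difference between the probes was 0.04 (exact permutation p = 0.839). Without control 3 the first of them gave −0.77 and did not pass. The third probe, ILMN_2621581, was detected on control 1 and ventilated 5 alone and was not tested. Its levels spanned 4.30 to 4.76.

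Lmod1 and Cnn1 lay near the limit of detection. Lmod1, the smooth muscle leiomodin, which nucleates actin filaments, was detected on controls 1 and 3 and ventilated 5. Its levels were 4.96, 5.44 and 4.94 in controls and 4.26, 4.61, 4.31, 5.01 and 4.68 in ventilated lungs. Of the ventilated lungs 4 lay below all controls, but the highest control value was that of control 2, where the probe was not detected. Its deposited detection p-value there was 0.0764. For Lmod1 the log2 fold change was −0.54 ± 0.25 (SE, 95% interval −1.09 to 0.01, limma adjusted p = 0.342). In the authors' scaled values it was −0.15.

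Cnn1, which encodes calponin, an inhibitor of actomyosin in smooth muscle, was detected on control 1, ventilated 2 and ventilated 5. Its levels spanned 4.47 to 4.86 in controls and 4.33 to 4.87 in ventilated lungs, and overlapped fully. The log2 fold change was 0.02 ± 0.23 (SE, limma adjusted p = 0.971). The 95% interval was −0.47 to 0.52, and a fall from a level so near background could not be measured in full.

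Other genes of the smooth muscle programme were counted by the brightest tested probe of each. Of the regulators of contraction 8 of 16 listed genes were measured, and none was called in either direction; their median log2 fold change was −0.30. Prkg1, the cyclic GMP-dependent kinase that relaxes smooth muscle, had the smallest p, at 0.54 ± 0.25 (SE, limma adjusted p = 0.353). Its change was 0.05 with a common median, 0.14 in the authors' scaled values and 0.31 without control 2. Of the SRF and myocardin regulators 10 of 14 were measured, none was called, and the median was 0.02. Myocd, which encodes myocardin, had the smallest p of these, at −0.70 ± 0.34 (SE, limma adjusted p = 0.374). It stood at 5.52, 6.60 and 5.47 in controls and at 5.58, 5.06, 5.26, 4.45 and 5.47 in ventilated lungs, and without control 2 its change was −0.36. Counts at an adjusted p under 0.05 for these lists stand against 1.62% of all tested probes.

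Of other filament and adhesion genes 12 of 19 were measured, none was called, and the median was 0.03. Pdlim7, a LIM protein of actin filaments, stood at 8.59, 8.43 and 8.67 in controls and at 9.45, 9.68, 9.88, 10.25 and 8.89 in ventilated lungs. The groups did not overlap, and the log2 fold change was 1.07 ± 0.30 (SE, limma adjusted p = 0.113). Of 15 nonmuscle or related paralogues 10 were measured, none was called, and the median was −0.06. Tmod1, a tropomodulin that caps actin filaments, had the smallest p, at 0.53 ± 0.25 (SE, limma adjusted p = 0.357).

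Markers of neighbouring cell types give the setting of these values. Of 12 pericyte and mural genes 10 were measured and none was called, with a median of 0.07, and Rgs4, a regulator of G protein signalling, had the smallest p (0.62 ± 0.25, SE, limma adjusted p = 0.284). Of 12 fibroblast genes 11 were measured with a median of 0.09, and 1 was called. It was Tcf21, a transcription factor of lung mesenchyme, which fell by 2.04 on the log2 scale (SE 0.37, limma adjusted p = 0.0278). Without control 3, or without ventilated 2, 3, 4 or 5, its change was −2.08 to −1.90 and the call was lost. The call was also lost with a common median, in the authors' scaled values and without the filter on dim probes. The same held with replicate number as a block and on the 4 brighter arrays. In these alternatives the change was −2.04 to −1.60. Of 6 measured endothelial genes and 9 epithelial genes none was called, with medians of −0.14 and 0.29. Tek, an endothelial receptor, had −0.67 ± 0.24 (SE, limma adjusted p = 0.212) and Krt18, an epithelial keratin, 1.05 ± 0.26 (SE, limma adjusted p = 0.0759). Of the cardiac and skeletal genes none was called, and the smallest p values belonged to Myl3, a myosin light chain (0.42 ± 0.48, SE, limma adjusted p = 0.745), and Tnnt3, a fast troponin (−1.11 ± 0.59, SE, limma adjusted p = 0.427). Myl3 had no settled direction, with −0.57 on the 4 brighter arrays and 0.08 without ventilated 4. Tnnt3 stood at 7.53 in control 1 and at 4.21 to 4.81 in the other lungs. It was detected in 2 controls and 1 ventilated lung.

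Neutrophil genes moved with the groups. Of 10 listed genes 9 were measured, 5 rose and none fell, against 0.987% of all tested probes called higher. Retnlg, a resistin-like gene of neutrophils, had a log2 fold change of 5.18 ± 0.40 (SE, limma adjusted p = 0.000413), and S100a9, a calprotectin subunit, of 4.58 ± 0.45 (SE, limma adjusted p = 0.00165). The summed linear level of the list was 1244 to 1790 in controls and 7839 to 19325 in ventilated lungs, and 3 of the 9 genes were detected on all arrays. Cxcr2, Ngp and Camp were not detected in any control, so they passed the detection filter through ventilated lungs alone. Camp was among the 5 that rose, and its call is therefore no separate support. The part of a changed cell mixture in the level of Synm was not tested.

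The genes whose profile over the 8 lungs was most like the mean profile of the 9 measured smooth muscle genes were Atp6v1c1, Atp5b, Eci1, Ubac1 and Flii. Likeness was the root mean square difference between centred log2 levels, which was 0.117 to 0.126 for these 5 among 9416 other genes. For the smooth muscle genes themselves it was 0.112 for Acta2, 0.24 for Myh11 and Lmod1, 0.26 for Tagln, 0.332 for Cnn1, 0.447 for Smtn, 0.508 for Des, 0.564 for Actg2 and 0.828 for Synm. The 5 were picked as the closest of 9416 genes, while the 9 were not picked for likeness. Their values therefore cannot be set against each other. The 5 genes had log2 fold changes of −0.42 to −0.17 and none passed.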

How the data were processed

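The authors deposited linear probe intensities that were not normalized, per the file headers, with a detection p-value for each intensity in the deposited file. A deposited value table holds intensities scaled by the authors to 1 mean per array, as its values show. RNA was amplified to biotin-labelled cRNA, per the labels' protocols; no scanner, software or genome build is named there. All columns were matched to samples by title. Intensities were processed with neqc of limma 3.58.1 in R 4.3.3 (inferred negative controls, offset 16, quantile normalization, log2), and a probe was kept if its detection p-value fell below 0.05 on 3 or more of 8 arrays. Each of the 13374 kept probes was a feature of the fit (lmFit, eBayes, two-sided, threshold 0.05); changes are ventilated minus control. The number of arrays, 3 and 5, limits the precision. The fit was tested on simulated data. It recovered 0.5% of 1.5-fold, 18.8% of 2-fold and 78.6% of 4-fold changes, and 4.07% of its calls were false. A change that was not called is thus not shown to be absent. The simulation does not give the share of false calls on the real arrays, which differed in brightness. Named are all probes of the 10 genes, the 2 largest called changes of each list or else its smallest p, and the 5 most like profiles; Vim, Acta1, Cxcr2, Ngp and Camp were named outside this rule, after their values were seen. The genes and lists were chosen with earlier results of these data known. Figures used Python 3.11.15 and matplotlib 3.10.9.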

Additional observations from a re-analysis of the deposited data

Results flagged for a closer look

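A level of 2 genes stood apart from the 4 other ventilated lungs by a gap above Dixon's critical value at 95%, among 34 probes examined, where chance flags about 1 in 20 groups. Ventilated 4 had a level of 8.66 for Rgs4, against 7.72 to 7.93 in the other ventilated lungs. It had a level of 8.08 for Eci1, against 7.40 to 7.55. No probe of the 9 measured smooth muscle genes was flagged in this way.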

How the results depend on the processing

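The number of probes called over the whole array was 216 and depended on the processing. It was 0 with arrays brought to a common median in limma (162 at an unadjusted p under 0.05, with the median of all changes moved from 0.01 to −0.12), 7 in the deposited scaled values, 1025 with array weights, 345 with array brightness as a block, 16 on the 4 brighter arrays and 2 with the replicate block. It was 64 to 176 with each lung left out, lowest without control 3. Called probes were 132 higher and 84 lower, but 7 and 0 in the deposited values, 109 and 116 with detection on all arrays, and 505 and 520 with array weights. Probes of the smooth muscle genes called lower numbered 1. They numbered 0 with a common median, in the deposited values, with the replicate block and on the brighter arrays, where limma gave 1, 4, 4 and 5 at an unadjusted p under 0.05. They numbered 2 with detection on all arrays and 4 with array weights, and 0 to 2 with each lung left out (0 without control 3, 2 without control 2). None was called higher under any alternative run. Over these alternatives the log2 fold change of Synm ILMN_1214880 was −2.06 to −1.25, and 15 of 20 kept the call. With the replicate block it was −2.04 (adjusted p = 0.253). Deviations of same-numbered lungs from their group means correlated at −0.37, −0.35 and 0.35. These few values differ in sign and do not settle whether the numbers pair the lungs. The change of Tagln, Des, Cnn1, Actg2 and Myl3 switched sign under some alternatives, none of them called. The differences in change within all Acta2 probe pairs kept their sign in the 19 alternatives that gave both probes. Those between Synm and the 8 other genes kept theirs in 20 (16 for Cnn1 and Lmod1). The cause of the changed counts was not tested.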
